A study of Mus musculus with 2 samples.

Results

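The genes described here are homeobox, Sox, Forkhead, GATA, T-box and related transcription factors that set the identity of body regions and cell lineages. They were taken by gene symbol from the families Hox, Sox, Fox, Gata, Pax, Tbx, Cdx, Hnf1, Nkx, Lhx, Pou, Dlx, Irx, Msx and sine oculis (Six2 to Six6 here), and 121 of the 13506 named genes with a value on both arrays belonged to them. The symbol rule also took Hoxd3os1, a noncoding antisense transcript, so 120 of the 121 code for proteins. No Hnf1 gene was among them. Colon26 is a mouse colon carcinoma line that was injected under the lining of the rectum of Balb/c mice. RNA came from liver metastases, labelled with Cy3, and from the primary tumours, labelled with Cy5, and each of 2 two-colour arrays compared 1 metastasis with 1 primary tumour grown and harvested independently. The labels name no further genotype, treatment, time or age. Both sides are whole tissue pieces of 1 cell line in its host, and in such bulk RNA fewer cells of a type and less RNA per cell cannot be told apart.

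Every value below is a log ratio of the 2 channels of an array, taken as log2, so that 1 unit would be a 2-fold difference. The channel in the numerator is not given in the sources used here. Ratios are therefore called positive or negative, with no side assigned to the metastasis or the primary tumour. Both arrays had the same dye orientation, and a probe's preference for a dye cannot be told apart from the difference between tissues. No level of a gene in either tissue can be had from ratios, so whether a factor was expressed at all, and whether the defining markers of colon carcinoma cells were present, was not measured.

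Homeodomain proteins bind short AT-rich DNA sites through a fold of helices, and Hox genes, the best known of them, lie in clusters whose gene order follows the order of their domains along the body. Sox proteins bend DNA through an HMG box, Forkhead proteins bind through a winged helix, and GATA proteins through zinc fingers. In the gut, Cdx2 and the GATA and Foxa factors maintain epithelial identity, Foxf1 and Foxf2 act in the mesenchyme around it, and Sox9 marks the crypt base. In the liver, Foxa and GATA factors help to open hepatocyte genes.

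The members were spread to both sides of 0 and few passed the test. In limma's moderated test with Benjamini-Hochberg adjustment over all genes, 2 of the 121 members passed an adjusted p of 0.05, Hoxd11 and Lhx3, both on the positive side. That is 1.65% of the members, against 2.9% of all genes tested. On the positive side the background was 2.12% of all genes, and on the negative side, where 0 members passed, it was 0.777%. At an unadjusted p under 0.05 there were 25 positive and 16 negative members, 33.9% of the 121, against 27.5% of all genes. A ratio of at least 1 unit on both arrays was met by 1 member, Hoxd11, against 2.27% of all genes.

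By sign, 48 members were positive on both arrays, 40 were negative on both and 33 had mixed signs. These counts are 39.7% and 33.1% of the members, against 33.9% and 38.2% of all genes. The median over the members was 0.03, with 0.04 on each array, against -0.02 over all genes. Their distance from 0 had a median of 0.34, against 0.27 over all genes, and the SD between the arrays had a median of 0.22, against 0.17. Pearson's r between the arrays was 0.494 across the members and 0.615 across all genes, where genes are not independent replicates. The plot of the 2 arrays shows the members scattered through the cloud of all genes, with Hoxd11 and Lhx3 at its upper right. Foxo4, Hoxb4 and Dlx2 are examples of members whose arrays disagreed.

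**Figure D1:**
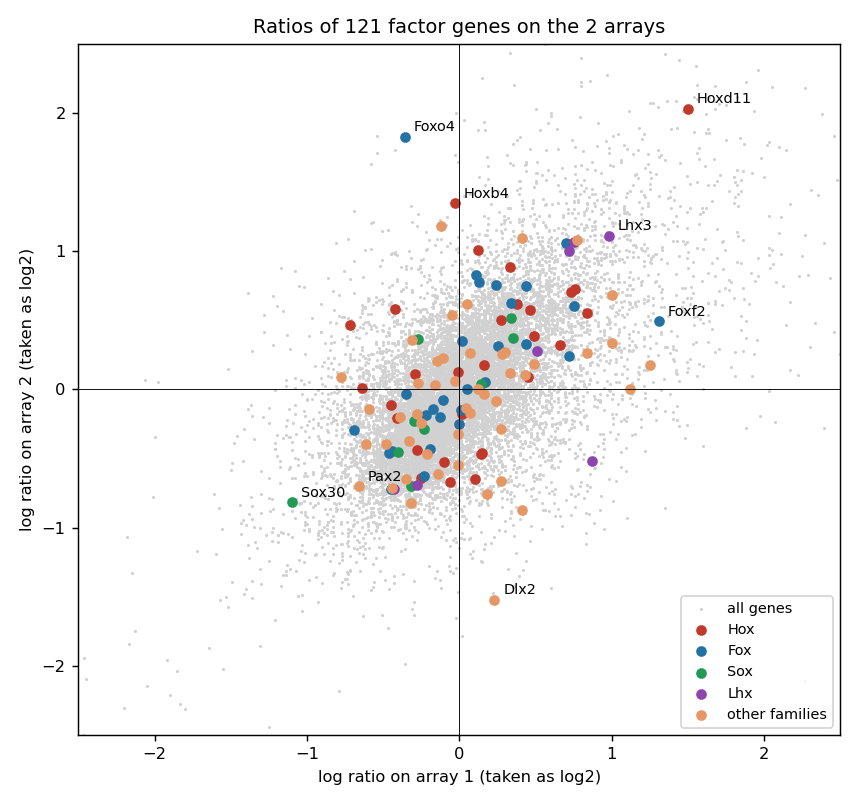
Log ratio (taken as log2) on array 1 against array 2 for all 13506 genes (grey) and the 121 factor genes, coloured by family. Hoxd11, at 1.50 and 2.03, and Lhx3, at 0.98 and 1.11, lie at the upper right and Sox30, at -1.10 and -0.82, at the lower left; 44 genes outside 2.5 units on either axis are not drawn.

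Hoxd11, a posterior gene of the HoxD cluster known for its part in patterning the forearm and the kidney, was the member farthest from 0. Its ratio was 1.50 on array 1 and 2.03 on array 2. The mean was 1.77 ± 0.38 (SD, n = 2), the 95% limma interval ran from 1.28 to 2.26 and the adjusted p was 0.033, and if the base is 2 the ratio was 3.4-fold. It passed in 7 of 8 alternative settings and missed after quantile normalization (adjusted p = 0.0695 in limma's test). Among the 8, the setting with natural logs only rescales the values and leaves every p unchanged. A called gene's pass there was fixed in advance, here and in the counts of alternatives given below. Lhx3, a LIM-homeodomain factor of the pituitary and of motor neurons, had 0.98 on array 1 and 1.11 on array 2. Its mean was 1.05 ± 0.09, its interval ran from 0.65 to 1.44, and its adjusted p was 0.0472 in limma's test. That p lay close to the threshold, and Lhx3 passed in 3 of 8 alternatives, with an adjusted p of up to 0.0887 in the others. On the negative side the member farthest from 0 was Sox30, a Sox factor of the male germ line, at -1.10 on array 1 and -0.82 on array 2. Its mean was -0.96 ± 0.20 and its adjusted p of 0.0553 missed the threshold.

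The promoter windows of these 3 genes are given because they led the positive and the negative side. Each window runs from 250 bases before to 50 after a transcription start, 5′ to 3′, as RefSeq annotates it on GRCm38.p6. Hoxd11 and Lhx3 have 2 annotated starts each, and which of them the tumours used was not measured. Capitals mark matches on either strand to TATAAA (the TATA box), to CCAAT (the CCAAT box), to GGGCGG (the GC box), to TAATTA (a homeodomain core) and to TGATTGAT (a joint site of Hox and Pbx proteins). Neighbouring matches can overlap, as 2 GC boxes do in the Sox30 window.
Hoxd11, chr2:74679308-74679607, plus strand: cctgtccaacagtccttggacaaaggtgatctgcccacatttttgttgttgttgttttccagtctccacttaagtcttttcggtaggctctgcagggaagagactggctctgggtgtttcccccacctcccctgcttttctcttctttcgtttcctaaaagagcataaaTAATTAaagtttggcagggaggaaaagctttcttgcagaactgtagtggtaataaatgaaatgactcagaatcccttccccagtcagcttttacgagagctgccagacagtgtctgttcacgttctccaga
Hoxd11, chr2:74682073-74682372, plus strand: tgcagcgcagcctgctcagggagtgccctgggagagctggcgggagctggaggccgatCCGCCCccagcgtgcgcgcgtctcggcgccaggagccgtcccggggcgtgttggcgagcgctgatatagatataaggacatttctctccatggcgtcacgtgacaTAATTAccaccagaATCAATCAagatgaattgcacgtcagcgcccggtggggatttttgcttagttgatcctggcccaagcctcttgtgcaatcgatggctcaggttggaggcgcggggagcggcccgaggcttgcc
Lhx3, chr2:26208200-26208499, minus strand: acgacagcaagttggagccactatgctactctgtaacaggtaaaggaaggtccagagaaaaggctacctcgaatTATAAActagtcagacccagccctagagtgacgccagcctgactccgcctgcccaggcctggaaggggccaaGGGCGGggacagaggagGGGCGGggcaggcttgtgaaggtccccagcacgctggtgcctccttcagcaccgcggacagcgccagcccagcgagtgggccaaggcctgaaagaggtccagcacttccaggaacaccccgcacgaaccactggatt
Lhx3, chr2:26206526-26206825, minus strand: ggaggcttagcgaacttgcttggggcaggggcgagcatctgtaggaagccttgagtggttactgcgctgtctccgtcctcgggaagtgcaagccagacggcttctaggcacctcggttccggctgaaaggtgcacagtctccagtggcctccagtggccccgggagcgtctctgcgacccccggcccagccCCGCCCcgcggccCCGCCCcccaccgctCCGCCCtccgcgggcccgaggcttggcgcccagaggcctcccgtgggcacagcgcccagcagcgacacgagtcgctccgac
Sox30, chr11:45980060-45980359, plus strand: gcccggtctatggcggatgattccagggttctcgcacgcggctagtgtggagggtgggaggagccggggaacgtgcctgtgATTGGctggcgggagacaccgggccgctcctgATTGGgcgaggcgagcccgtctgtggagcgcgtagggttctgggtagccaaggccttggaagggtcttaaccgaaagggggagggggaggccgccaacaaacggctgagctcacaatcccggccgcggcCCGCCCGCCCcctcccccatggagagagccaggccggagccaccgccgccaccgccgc

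The second Hoxd11 window held TAATTA from its base 164 and the Hox-Pbx letters, on the opposite strand, from its base 178. The first Hoxd11 window held TAATTA alone and 4 CpG pairs, against 25 in the second. Lhx3 had GC boxes in both windows, and its first window held TATAAA from its base 75, whereas the start follows base 250. Sox30 had 2 CCAAT and 2 GC boxes, all on the opposite strand. RefSeq windows were found for 83 of the 121 members, 105 windows in all. Of these, 2.86% held the Hox-Pbx letters, in Hoxa2, Hoxd11 and Tbx6, against 0.49% of the 13674 windows of measured genes and 0.746% of all 32851 windows. The TAATTA letters were in 4.76% of member windows, 3.26% of those of measured genes and 5.29% of all. TATAAA was in 10.5%, 9.59% and 13.6% of the windows in that order. CCAAT was in 44.8%, 37.0% and 37.4%, and GC boxes were in 61.9%, 55.6% and 35.7%. The median number of CpG pairs was 18 in the windows of members and of measured genes alike. A match to letters is a description of the sequence and does not show binding.

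Of 28 measured Hox protein genes, 13 had both arrays above 0, 6 had both below 0 and 9 were mixed, and the median was 0.12. Hoxd11 alone passed the threshold, 3.57% of the 28, against 2.9% of all genes. At an unadjusted p under 0.05 there were 9 positive and 1 negative, 35.7% of the 28. That compares with 27.5% of all genes, 15.0% positive and 12.5% negative. The HoxB cluster had the highest median of the 4 clusters, 0.55 over 8 genes, with 5 positive on both arrays and 1 negative. Hoxb1, which gives identity to a segment of the hindbrain, had 0.73 on array 1 and 0.70 on array 2, with a mean of 0.72 ± 0.02 (SD, n = 2; adjusted p = 0.0759). Hoxb3 had 0.33 and 0.88 on arrays 1 and 2, and Hoxb5 had 0.84 and 0.55, with a mean of 0.70 ± 0.20 (adjusted p = 0.0886). Hoxb6 and Hoxb7 lay lower, at 0.38 and 0.62 and at 0.27 and 0.51. In each of these 5 genes both arrays lay above 0, while Hoxb4, known for expanding blood stem cells when overexpressed, had -0.03 on array 1 and 1.35 on array 2 and its arrays disagreed. At the other end of the measured cluster the ratios crossed 0. Hoxb8 had 0.15 and -0.46 and Hoxb9 had -0.10 and -0.52, which made Hoxb9 the 1 negative gene of the cluster.

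In the HoxD cluster, positive and negative genes stood next to each other. Hoxd1 was negative, at -0.41 and -0.21, whereas Hoxd3 was positive, at 0.76 on array 1 and 0.73 on array 2, with a mean of 0.74 ± 0.02 (SD, n = 2; adjusted p = 0.07). Hoxd8 lay at -0.01 and 0.13 and Hoxd9 at -0.06 and -0.67. Hoxd10, the neighbour of Hoxd11, had 0.45 and 0.09, so both arrays were positive but far below the values of Hoxd11. Hoxd13 had 0.27 on array 2 and no value on array 1. The antisense transcript Hoxd3os1 was read by 2 probes on opposite sides of 0, one at -0.44 and -0.51 and the other at 0.48 and 0.15. Their average, 0.02 and -0.18, therefore says little about that transcript.

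HoxA and HoxC genes had no common side. HoxA had 3 positive, 2 negative and 4 mixed genes of 9, with a median of -0.13. Hoxa9, a gene often active in leukaemia, and Hoxa10 were positive, at 0.66 and 0.32 and at 0.49 and 0.38. Their neighbour Hoxa11 was negative, at -0.25 and -0.64, and Hoxa13, the gene of the hindgut and limb end, had -0.72 and 0.47. Further forward in the cluster Hoxa5 was negative at -0.45 and -0.11, Hoxa6 was positive at 0.16 and 0.18, and the arrays disagreed for Hoxa2, Hoxa4 and Hoxa7. In HoxC, Hoxc6 and Hoxc8 were positive, at 0.46 and 0.58 and at 0.12 and 1.01. Hoxc13 was negative at -0.28 and -0.44, and Hoxc9 and Hoxc10 were mixed, at -0.29 and 0.11 and at -0.64 and 0.01.

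Grouped by position after the values were seen, the 17 genes of paralogue groups 1 to 8 had a median of 0.39, with 9 positive and 2 negative on both arrays. The 11 genes of groups 9 to 13 had a median of -0.13, with 4 positive and 4 negative. No test was made of this difference. In the plot by cluster Hoxd11 stands apart from the other posterior genes, whose means lay between -0.44 and 0.49.

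**Figure D2:**
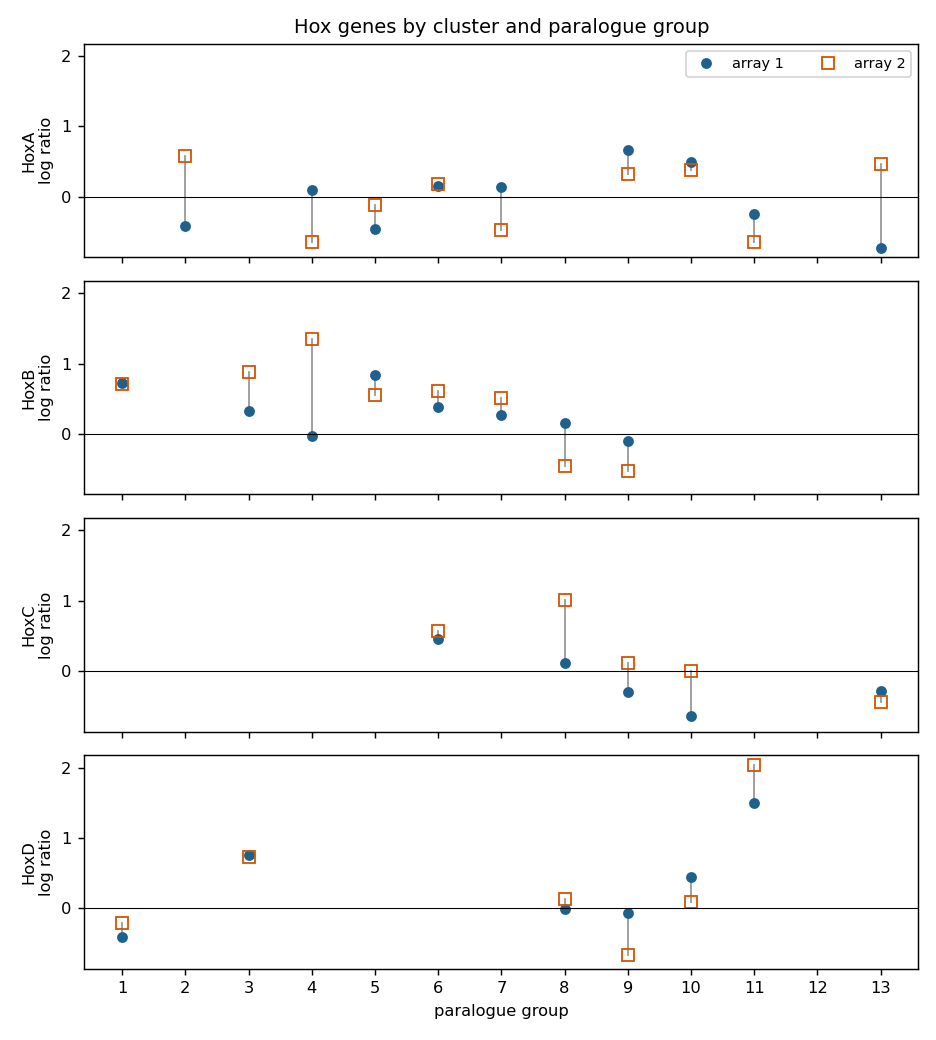
Log ratio (taken as log2) of 28 Hox genes on array 1 (filled circles) and array 2 (open squares), by cluster A to D and paralogue group; grey lines join the arrays. Ratios of Hoxb1 to Hoxb7 lie above 0 apart from Hoxb4 on array 1, and Hoxd11 is highest, at 1.50 and 2.03.

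Hox proteins bind DNA together with TALE homeodomain proteins of the Pbx, Meis and Pknox groups, and their clusters are held silent by Polycomb and kept active by Trithorax complexes. Of 11 Hox and TALE partner genes listed, 7 were measured and 0 passed in limma's test, against 2.9% of all genes. An unadjusted p under 0.05 was met by 2, 28.6% of the 7, close to the 27.5% of all genes. Pknox2 had 0.65 on array 1 and 1.74 on array 2 and Pbx4 had -0.58 on array 1 and -0.54 on array 2, on opposite sides of 0. Tgif1 and Tgif2, which repress at TALE-type sites, had 0.12 and 0.25 and -0.20 and -0.15. Of 26 measured Polycomb and Trithorax genes, 13 had both arrays above 0 and 10 both below 0, with a median of 0.06. Bmi1, a Polycomb protein needed for stem cell renewal, was the 1 that passed, at 1.29 on array 1 and 0.98 on array 2 and a mean of 1.14 ± 0.22 (SD, n = 2; adjusted p = 0.0472). It passed in 3 of 8 alternatives. This 1 gene is 3.85% of the 26, against 2.9% of all genes. Suz12 and Jarid2, partners in the complex that methylates histone H3, were negative at -0.45 and -0.62 and at -0.29 and -0.60, and the enzymes Ezh1 and Ezh2 were positive at 0.28 and 0.60 and at 0.31 and 0.25. Wdr5, a Trithorax subunit, had -0.55 and -0.67, Pcgf6 0.53 and 0.54 and Phc2 -0.50 and -0.43. None of these other genes passed.

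The Lhx family, whose proteins carry LIM domains for binding partners beside the homeodomain, had 4 positive and 2 negative members of 7 and a median of 0.39. Beside Lhx3, Lhx9, a factor of the early gonad, had 0.75 on array 1 and 1.07 on array 2 and a mean of 0.91 ± 0.22 (SD, n = 2; adjusted p = 0.0599). Lhx1, needed for head and kidney formation, had 0.72 on array 1 and 1.00 on array 2 and a mean of 0.86 ± 0.20 (adjusted p = 0.0629). Both missed the threshold, with both arrays above 0.7. Lhx8, a factor of forebrain neurons, was lower at 0.51 and 0.28. On the other side lay Lhx6, a factor of cortical interneurons, at -0.43 and -0.72 with a mean of -0.58 ± 0.21 (adjusted p = 0.116), and Lhx4, the nearest relative of Lhx3, at -0.28 and -0.69. For Lhx2 the arrays disagreed, at 0.87 and -0.52. Among 6 measured LIM partners and relatives, Isl1 and Isl2, LIM factors of motor neurons, were positive at 0.60 and 0.98 and at 0.69 and 0.70. Ldb1, the protein that joins LIM factors into complexes, was negative at -0.35 and -0.86, and Lmo4 at -0.31 and -0.24. None of the 6 passed in limma's test, against 2.9% of all genes. An unadjusted p under 0.05 was met by 3 of the 6, against 27.5% of all genes. Markers of enteric neurons and glia did not share a side: of 5 measured, 1 was positive and 1 negative on both arrays, and the negative one, Tubb3, passed at -1.07 ± 0.18, and in 2 of 8 alternatives. With Tubb3, 20.0% of the 5 markers passed, against 2.9% of all genes. The part of enteric neurons and glia in the Lhx ratios was not tested.

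Of 28 measured Fox genes, 14 had both arrays above 0 and 12 both below 0, the median was 0.07 and none passed the threshold in limma's test. At an unadjusted p under 0.05 there were 7 positive and 4 negative, 39.3% of the 28, against 27.5% of all genes. Those of the mesenchyme of the gut, Foxf2 and Foxf1, were both positive. Foxf2 had 1.31 on array 1 and 0.49 on array 2, with a mean of 0.90 ± 0.58 (SD, n = 2; adjusted p = 0.102), and Foxf1 had 0.34 and 0.63. Foxc1 and Foxc2, related factors of mesenchyme and vessels, lay on opposite sides at 0.44 and 0.75 and at -0.23 and -0.63. Of 9 endothelial markers measured, 7 were positive and 0 negative on both arrays, with a median of 0.48, and 77.8% positive compares with 33.9% of all genes. Flt1, a receptor for VEGF, and Robo4 passed, which is 22.2% of the 9, against 2.9% of all genes. Flt1 had 1.00 and 1.51 (adjusted p = 0.0475, 2 of 8 alternatives) and Robo4 0.89 and 1.19 (adjusted p = 0.0492, 1 of 8). The 1 pass of Robo4 was the rescaling to natural logs, which cannot change a p. Of 7 smooth muscle markers, 2 were positive and 4 negative, with a median of -0.32. In limma's test 1 passed, 14.3% of the 7, against 2.9% of all genes. The 1 that passed, Cnn1, a calponin, lay on the positive side at 0.98 and 1.32 (adjusted p = 0.0472, 3 of 8 alternatives). Of 4 fibroblast markers, 3 were negative and 0 positive, with a median of -0.32. Col1a1, a chain of type I collagen, passed on the negative side at -2.80 and -3.05, with a mean of -2.93 ± 0.18 (adjusted p = 0.0184, 7 of 8 alternatives). It was the 1 of the 4 to pass in limma's test, against 2.9% of all genes. The other 3 lay much nearer 0. Col1a2, also a chain of type I collagen, had -0.38 and -0.11, Col3a1 had -0.72 and -0.09, and Pdgfra was mixed at -0.04 and 0.43. The part of these cells in the Foxf and Foxc ratios was not tested.

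Foxp1, a repressor with roles in lymphocytes, heart and lung, had 0.70 on array 1 and 1.06 on array 2 and a mean of 0.88 ± 0.25 (SD, n = 2; adjusted p = 0.0654). Foxp2, best known from the brain, was positive at 0.44 and 0.33, and Foxp4 was negative at -0.46 and -0.46, so the 3 FoxP genes did not share a side. Foxn2 had 0.75 on array 1 and 0.60 on array 2 and a mean of 0.68 ± 0.10 (adjusted p = 0.0853). Foxn1, the factor of thymic epithelium, was positive at 0.25 and 0.31. Foxq1, a gene often raised in human colorectal cancer, had 0.72 and 0.24, positive on both arrays but unequal. Foxe3, a lens factor, and Foxj1, the factor of motile cilia, were positive and unequal too, at 0.24 and 0.76 and at 0.11 and 0.83.

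The negative Fox genes were led by Foxk2, a repressor linked to metabolism and growth, at -0.45 on array 1 and -0.72 on array 2 with a mean of -0.58 ± 0.19 (SD, n = 2; adjusted p = 0.111). Its relative Foxk1 was read by 2 probes that disagreed, one at -0.36 and -1.07 and the other at 0.35 and 0.57. Foxi2 and Foxp4 had nearly equal arrays, with means of -0.44 ± 0.00 (adjusted p = 0.15) and -0.46 ± 0.00 (adjusted p = 0.142). Foxh1, a partner of Smad proteins, had -0.69 and -0.30, and Foxd4 and Foxd2 had -0.19 and -0.44 and -0.11 and -0.07. Foxj2 was close to 0 at -0.13 and -0.20. For Foxn3 the probes disagreed on array 1, at -0.31 and 0.35.

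**Figure D3:**
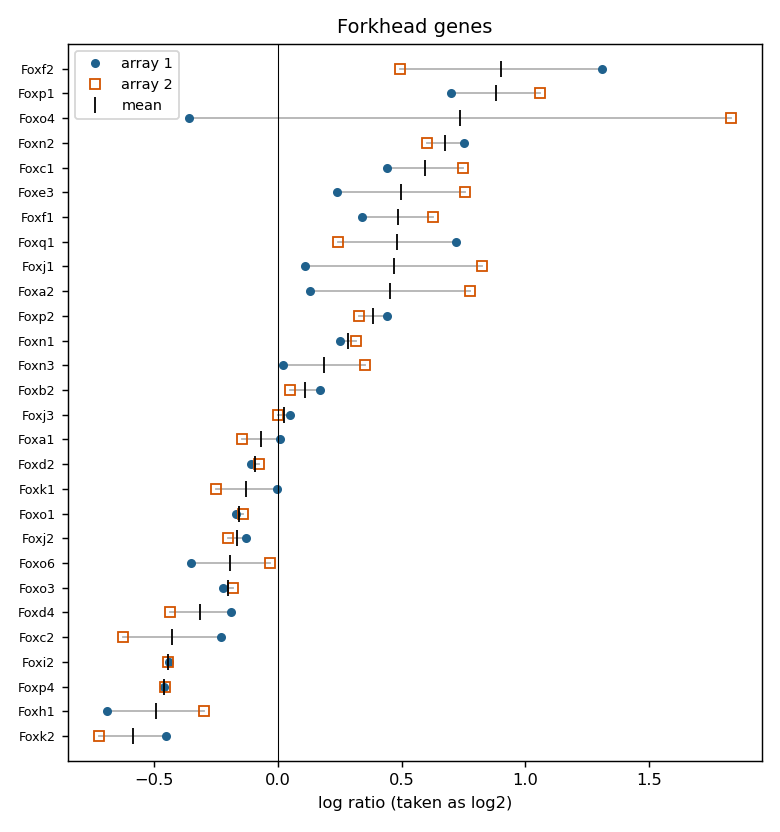
Log ratio (taken as log2) of 28 Forkhead genes on array 1 (filled circles), array 2 (open squares) and their mean (bars), ordered by the mean. Foxf2, with a mean of 0.90, is at the top and Foxk2, with -0.58, at the bottom; the arrays of Foxo4 lie farthest apart, at -0.36 and 1.83.

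FoxO proteins, which insulin and growth factor signals send out of the nucleus, lay near 0 with 1 exception. Foxo1 had -0.17 and -0.14, Foxo3 -0.22 and -0.18 and Foxo6 -0.35 and -0.03, all negative and none past the threshold. Foxo4 had -0.36 on array 1 and 1.83 on array 2, so its mean of 0.73 ± 1.55 rests on array 2. Of 13 measured FOXO target genes, 5 lay above and 4 below 0 on both arrays, with a median of -0.04. In limma's test 2 passed, 15.4% of the 13, against 2.9% of all genes. These were Bcl6, a repressor of germinal centre B cells, at 1.05 on array 1 and 1.10 on array 2 (adjusted p = 0.0439) and Fbxo32, a ubiquitin ligase of muscle wasting, at 0.99 on array 1 and 0.96 on array 2 (adjusted p = 0.0475). Bcl6 passed in 4 and Fbxo32 in 2 of 8 alternatives. Trim63, another muscle ligase, and Trp53inp1 had 0.81 and 0.71 and 0.70 and 0.96 and missed it. Klf2 was on the negative side at -0.64 and -0.39. Skeletal muscle markers were positive in 5 of 6 and negative in 1, with a median of 0.39. In limma's test 1 passed, 16.7% of the 6, against 2.9% of all genes. Actn3, an actinin of fast fibres, passed at 1.47 and 1.08 (adjusted p = 0.0438, 4 of 8 alternatives). The part of muscle in the ratios of Fbxo32 and Trim63 was not tested.

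Foxm1, which drives genes of mitosis, was not analysed here. Of 14 measured genes known as its targets, 12 were negative on both arrays, against 38.2% of all genes, 1 was positive and 1 mixed, and the median was -0.25. None passed in limma's test. An unadjusted p under 0.05 was met by 4, 28.6% of the 14, close to the 27.5% of all genes. Cks1b, a subunit of cyclin-dependent kinases, had -0.54 and -0.87 and Cenpa, the histone of centromeres, -0.52 and -0.58. Bub1b and Plk1, a checkpoint protein and a kinase of mitosis, had -0.44 and -0.66 and -0.31 and -0.66.

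None of the factors that define gut and liver epithelium passed in limma's test, and the means of those on both arrays lay between -0.38 and 0.55. Of those named next, Gata5 alone had an unadjusted p under 0.05. Cdx2, the master regulator of intestinal identity, was negative at -0.14 on array 1 and -0.61 on array 2, with a mean of -0.38 ± 0.33 (SD, n = 2; adjusted p = 0.247) and a 95% interval of -0.84 to 0.09. Cdx1, its relative in the colon, had -0.03 on array 1 and 0.06 on array 2, with a mean of 0.02 ± 0.06 (adjusted p = 0.955) and an interval of -0.37 to 0.40. Cdx4 was negative at -0.01 and -0.54. Foxa2, a pioneer factor of endoderm, had 0.13 on array 1 and 0.78 on array 2 and a mean of 0.45 ± 0.46 (adjusted p = 0.229). Its relative Foxa1 had 0.01 on array 1 and -0.15 on array 2 and a mean of -0.07 ± 0.11 (adjusted p = 0.798), and Foxa3 had 1.04 on array 2 alone. Gata6 had 0.07 and 0.26, with a mean of 0.16 ± 0.13 (adjusted p = 0.518). Gata4 had -0.31 and 0.36, on opposite sides, with a mean of 0.02 ± 0.47 (adjusted p = 0.951). Gata5, another endodermal GATA factor, was positive at 0.84 and 0.26, with a mean of 0.55 ± 0.41 (adjusted p = 0.161). Sox9, the factor of crypt base and bile duct cells, was negative at -0.23 and -0.29, with a mean of -0.26 ± 0.04 (adjusted p = 0.313) and an interval of -0.65 to 0.13. The interval of Gata5 ran from 0.05 to 1.06 and left out 0 before adjustment. Those of the other factors named here with 2 arrays include 0 and also allow ratios well away from it, so they do not show equal expression.

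Liver factors outside these families had means between -0.34 and 0.28. Of 7 measured, 1 was positive, 1 negative and 5 mixed, the median was -0.03 and none passed or had an unadjusted p under 0.05. Nr2f2 had 0.35 and 0.21, Cebpa -0.19 and -0.50, and Prox1 -0.63 and 0.09. Hepatocyte markers had 2 positive and 5 negative of 10, with a median of -0.09, and colonic epithelium markers had 3 of each among 9, with a median of 0.13. Their part in the ratios of the endodermal factors was not tested.

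Of 9 Sox genes measured, 5 were negative and 3 positive on both arrays, with a median of -0.26. None passed in limma's test, and 1 positive and 3 negative had an unadjusted p under 0.05, 44.4% of the 9, against 27.5% of all genes. After Sox30, Sox12 and Sox6 were the next on the negative side. Sox12 had -0.32 and -0.70, and Sox6, a factor of cartilage, muscle and red cells, had -0.40 on array 1 and -0.45 on array 2 with a mean of -0.43 ± 0.04 (SD, n = 2; adjusted p = 0.158). Sox8, related to Sox9, was negative as well at -0.30 and -0.23. Sox10, the factor of enteric glia and neural crest, was positive at 0.34 and 0.52, and so were Sox15 at 0.35 and 0.37 and the endothelial Sox7 at 0.14 and 0.04. For Sox21 the arrays disagreed. The arrays stood closer together for Sox genes than for all genes, with a median SD of 0.07 against 0.17.

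Pax2, a factor of the kidney and urinary tract, had -0.66 on array 1 and -0.70 on array 2 and a mean of -0.68 ± 0.03 (SD, n = 2; adjusted p = 0.0817). Its relative Pax8, of the thyroid and kidney, was on the positive side at 1.00 and 0.34. The same division held for Pax1 and Pax9, related factors of the vertebral column and thymus, at 0.41 and 1.10 and at -0.32 and -0.82. Pax6 was positive at 0.43 and 0.10 and Pax3 near 0 at 0.16 and -0.03. Six4, a factor of muscle precursors, had 1.00 on array 1 and 0.69 on array 2, with a mean of 0.84 ± 0.22 (adjusted p = 0.0672). Six6, of the eye and pituitary, was negative at -0.21 and -0.47. Six3, Six5 and Six2 had 1 array at or below 0, at 1.12 and 0.00, -0.12 and 1.18 and -0.05 and 0.54.

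The proteins of Six4 and its relatives act with Eya and Dach proteins. Of 6 measured genes of these partners, Dach2 and Eya2 were positive but unequal, at 0.75 and 2.62 and at 1.15 and 0.32, and Dach1 and Eya4 were negative at -0.39 and -0.51 and at -0.09 and -0.31. None of the 6 passed in limma's test, against 2.9% of all genes. An unadjusted p under 0.05 was met by 3 of the 6, against 27.5% of all genes. Dlx3, a factor of epidermis and placenta, was the Dlx gene farthest from 0, at 0.77 on array 1 and 1.08 on array 2 with a mean of 0.93 ± 0.22 (SD, n = 2; adjusted p = 0.0587). Dlx4, which lies beside Dlx3 in the genome, was negative at -0.39 and -0.20. Dlx1 was negative at -0.01 and -0.32, and for Dlx2 and Dlx6 the arrays disagreed, at 0.23 and -1.52 and at 0.27 and -0.66.

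None of the 6 GATA genes was negative on both arrays and 4 were positive on both, with a median of 0.22. Gata2, of blood stem cells and endothelium, had 0.30 and 0.27, with a mean of 0.28 ± 0.02 (adjusted p = 0.276), and Gata3, of T helper cells, had 0.28 and 0.25. Both were low and even. Gata1, the erythroid factor, had -0.16 and 0.03. Of their partners in blood, Tal1 passed, at 1.25 on array 1 and 1.57 on array 2 with a mean of 1.41 ± 0.23 (SD, n = 2; adjusted p = 0.0365), and it did so in 5 of 8 alternatives. Tal1 made up 16.7% of the 6 partners measured, against 2.9% of all genes past the threshold. Runx1 and Klf1 were positive at 0.59 and 0.90 and at 0.33 and 0.61 and missed the threshold. The GATA cofactor Zfpm1 was near 0 at -0.15 and -0.16. Spi1 was negative at -0.05 and -0.18, and Zfpm2 had mixed signs at -0.31 and 0.51. Of the 6 partners, 3 were thus positive on both arrays, 2 negative and 1 mixed. Of 2 erythroid markers measured, 0 were positive and 1 was negative on both arrays, and their part in these ratios was not tested.

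Tbx21, the factor of Th1 and natural killer cells, was the T-box gene farthest to the negative side, at -0.35 on array 1 and -0.65 on array 2, with a mean of -0.50 ± 0.21 (SD, n = 2; adjusted p = 0.143). Foxp3, of regulatory T cells, had 0.38 on array 1 alone. Of 10 T and B cell markers measured, 4 were positive and 3 negative on both arrays, with a median of 0.17. Their part in the ratios of Tbx21, Gata3 and Foxp1 was not tested. Tbx6, of early mesoderm, was negative at -0.33 and -0.37, with a mean of -0.35 ± 0.03 (adjusted p = 0.207), and Tbx2 was positive at 0.49 and 0.18. For Tbx3, Tbx15 and Tbx10 the arrays disagreed, and Tbx4 was near 0.

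Among 7 POU genes, 3 had both arrays below 0 and 1 had both above 0. Pou3f3, of brain and kidney, had -0.61 on array 1 and -0.39 on array 2, with a mean of -0.50 ± 0.15 (SD, n = 2; adjusted p = 0.132). Pou2f2, the lymphoid octamer factor, and Pou2f1, its widely expressed relative, were negative at -0.59 and -0.14 and at -0.25 and -0.24. Pou4f3, a factor of the inner ear, was positive at 0.05 and 0.62, and Pou3f2, Pou4f1 and Pou6f1 had mixed signs. The octamer cofactor Hcfc1 had 0.19 and 0.11. The 6 Irx genes lay between -0.23 and 0.23, the narrowest range among the families with at least 5 genes, with Irx6 at -0.28 and -0.18 and Irx2 at 0.33 and 0.12 as their ends. The mean of Irx6 was -0.23 ± 0.07 (adjusted p = 0.366). Msx1 was negative at -0.48 and -0.40, with a mean of -0.44 ± 0.06 (adjusted p = 0.152), and Msx3 was positive at 1.25 and 0.18, mostly on array 1. Nkx3-2, of the stomach wall, spleen and axial skeleton, was the 1 Nkx gene measured, at -0.44 on array 1 and -0.71 on array 2 with a mean of -0.58 ± 0.19 (adjusted p = 0.114).

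**Figure D4:**
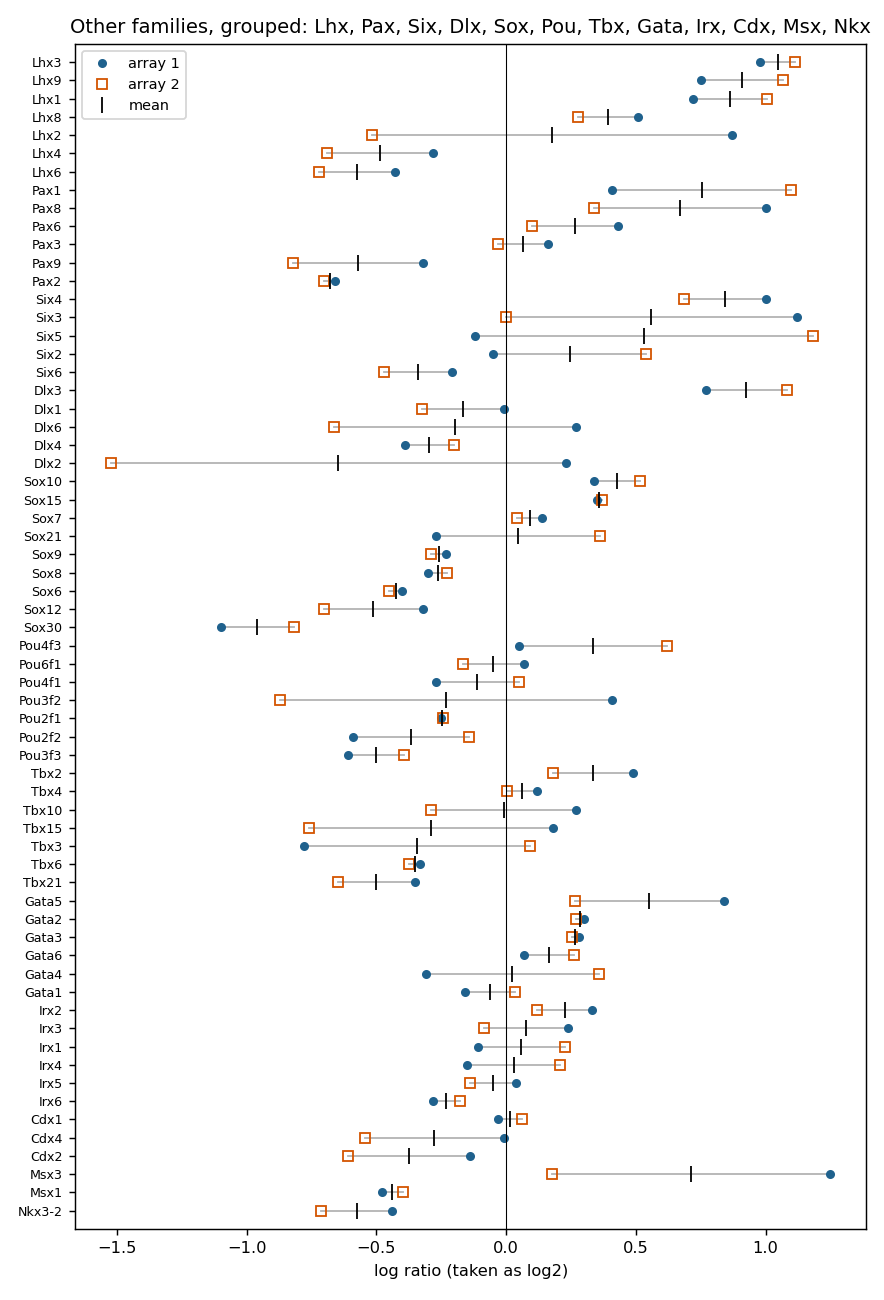
Log ratio (taken as log2) of the members of 12 further families on array 1 (filled circles), array 2 (open squares) and their mean (bars), ordered within each family by the mean. Lhx3, Lhx9, Lhx1, Six4 and Dlx3 lie at 0.84 or above, Sox30 is lowest at -0.96, and the arrays of Dlx2 lie farthest apart, at 0.23 and -1.52.

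**Figure D5:**
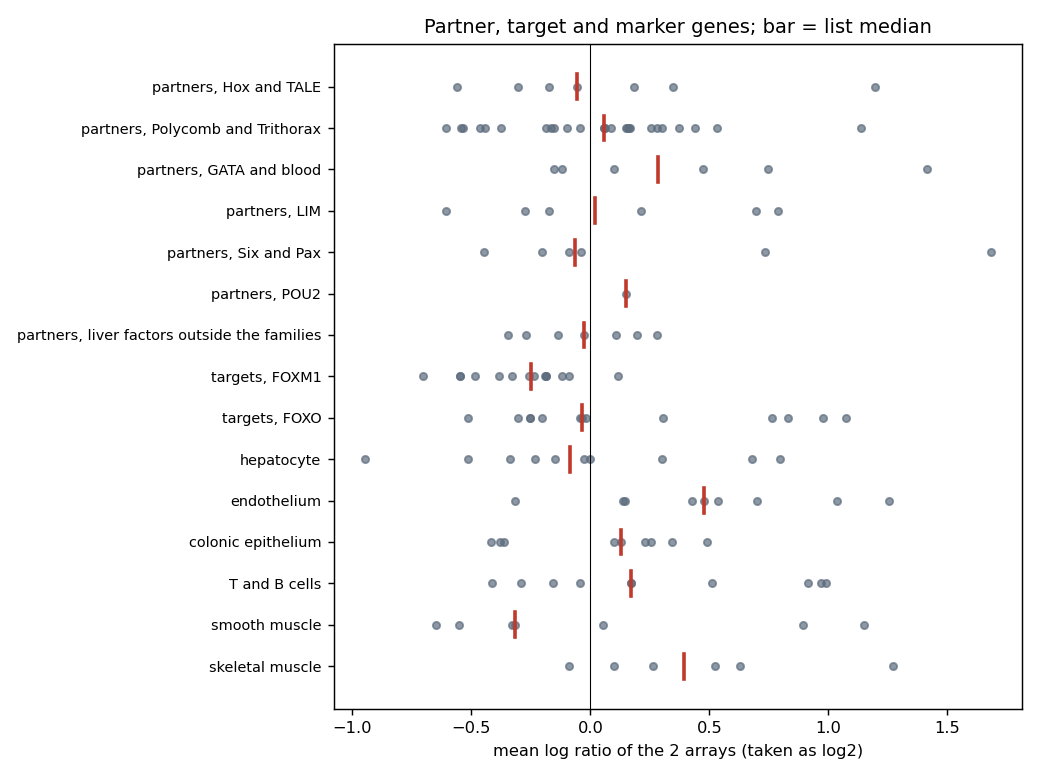
Mean log ratio of the 2 arrays (taken as log2) for single genes (grey points) of partner, target and marker lists, with each list's median as a red bar. FOXM1 targets have a median of -0.25 and endothelial markers one of 0.48. Among the genes drawn, Tal1, at 1.41, and Bmi1, at 1.14, passed the threshold, and so did Bcl6, Fbxo32, Flt1, Robo4, Cnn1 and Actn3.

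A further 32 genes matched the families by name but lacked a value on 1 or both arrays and are not members. Of these, 16 had a value on 1 array, 5 on array 1 and 11 on array 2. Of the 16, 14 were positive and 2 negative, with a median of 0.52. Tbx20, a heart factor, had 2.37 on array 2, Sox6os, an antisense transcript of Sox6, had 1.98 on array 1, Sox11 had 1.90 and Tbx5 1.57 on array 2. Positive values prevailed in the same way among all 1489 named genes with a value on 1 array only, of which 85.0% were positive, against 87.5% of the 16. The endothelial factors Sox17 and Sox18 and the B cell factor Pax5 had a value on neither array.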

How the data were processed

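The authors deposited 1 value per probe and array, a log ratio of the 2 channels, taken here as log2 values by assumption. The log base is not given in the sources used here. Per the labels, aRNA was coupled with Cy5 for primary tumours and Cy3 for liver metastases. Their background correction, spot filter and normalization: not given in the sources used here. Both arrays had a value for 18837 of 23473 probes, and 16631 probes had 1 gene symbol. Symbols were updated through the RefSeq table of GRCm38.p6 for 3947 probes, and 62 were kept as given. Probes were averaged per gene, giving 13506 genes. Of the members, 3 had more than 1 probe and 6 carried an older name. The test of each gene's ratio against 0 was limma's (version 3.58.1, R 4.3.3; lmFit and eBayes), with 1 residual degree of freedom and a prior of 4.06, adjusted by Benjamini-Hochberg over all genes. The number of arrays limits the precision. The fit was also run on simulated ratios with known changes and independent noise. These held no dye effect, so they cannot tell how a probe's preference for a dye bears on the calls. Figures used matplotlib 3.10.9.

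The members and all gene lists were chosen with earlier results of these data known. Any member could be named; mean, SD and adjusted p were given for members past the threshold, to the 12 per side whose weaker array lay farthest from 0, to the leader of each family and to a fixed set of gut and liver factors. Of partner, target and marker lists, genes past the threshold were named, and of partner and target lists leading genes as well. Other genes named from those lists, and the grouping of Hox genes by position, were chosen after their values were seen.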

Additional observations from a re-analysis of the deposited data

How the results depend on the processing

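With 2 members past the threshold, the count was 1 after scaling the arrays to equal spread, with a minimum fold of 1.2, with the probe farthest from 0 and in the fit on probes, and 0 after quantile normalization, where limma called 4 of 13506 genes. It stayed at 2 after centring and with robust moderation. With natural logs it was 2 as well, which was fixed in advance, since a common rescaling leaves every p unchanged. It has no value without an array, since 1 array leaves no test. Lhx3 was the call lost with 1 member left, with adjusted p in limma of 0.0601 after scaling, 0.0887 with the minimum fold, 0.0503 with the farthest probe, 0.0582 on probes and 0.0786 after quantile normalization. The farthest probe lowered the number of calls among all genes to 271, scaling to 51, the minimum fold to 108 and robust moderation to 267, against 391. The fit on probes called 238 of 18837. The 1 member at least 1 unit from 0 on both arrays became 2 after scaling or centring, 9 with natural logs and 6 with genes on 1 array added, and 7 to 12 members reached 1 unit on a single array. The median of 0.025 was 0.0156 after scaling, 0.0496 after centring, 0.0135 after quantile normalization, 0.0362 with natural logs, 0.0284 on probes, 0.0648 with genes on 1 array added, and 0.04 to 0.0418 on single arrays. Gata4, near 0, turned to -0.00646 after scaling and to -0.00469 after quantile normalization. With natural logs every value was rescaled alike, so that count and that median moved by arithmetic alone. For the other changes the cause was not tested. The counts of members positive or negative on both arrays stayed within 1.5 times in every setting run, with 64 to 65 positive and 56 to 57 negative on single arrays. Of 264 values of 33 named members under 8 settings with a test, 256 kept their direction and their side of the threshold, 6 lost the call and 2 reversed. Much of this was fixed in advance, so the 256 do not measure robustness. Natural logs cannot change a sign or a p, and robust moderation and the minimum fold cannot change a mean. Members not called in the main fit counted as kept when again not called. All 6 lost calls fell on Hoxd11 and Lhx3, the members called in the main fit. Each ratio compares the 1 metastasis and the 1 primary tumour of an array, so the test against 0 already uses that pairing. By pairing only the sharing of an array is meant, not an origin in the same mouse. No further paired analysis was possible, since no separate groups share replicate numbers.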
